A study of Mus musculus with 54 samples.

Results

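The 47 genes described here encode proteins of the cytosolic ribosome, and their transcripts were measured on 54 mouse arrays from striatum, brainstem/midbrain and cerebellum. Members were chosen by gene symbol alone: Rpl or Rps with a number, Rplp0 to Rplp2, or Rpsa, each represented by the brightest probe set annotated to that gene and to no other. Of 76 such genes named on the array, 47 had a probe set of their own, 24 of the large and 23 of the small subunit, among 18193 genes with one and 45037 probe sets tested. The other 29 shared every probe set with another gene or pseudogene. Ribosomal proteins have many processed pseudogenes, so a probe set with a clean annotation can still bind related transcripts.

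The study compared 2 transgenic mouse lines that model Parkinson's disease, PrPmtA and PrPmtB, with the FVB/N background strain (WT). In both lines the neuronal prion protein promoter drives the transgene. The aim was to find transcript changes with age and genotype in each region, with young mice taken before motor impairment and old transgenic mice mildly impaired. The young groups were 6 months old, with 1 female and 1 male array per line and region. The old WT mice were 22 months (female), 20 months (labelled female+male, so more than 1 animal may lie behind an array), 28 months (female) and 26 months (male). Old PrPmtA mice were 21 months (female), 28 months (female) and 26 months (male), and old PrPmtB mice 22 months (female) and 20 months (female+male). The old groups held 4 WT, 2 PrPmtA and 2 PrPmtB arrays from striatum, 6, 4 and 3 from brainstem/midbrain, and 6, 5 and 4 from cerebellum. The arrays came in 3 series of 18, judged by their labels: every young array lies in series 1 and every old one in series 2 or 3, so the effects of age and of series cannot be told apart. Nothing in the labels beyond separate samples ties the replicates to separate animals, and p-values measure only the spread between these arrays.

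Labelled regions carried their defining markers. The striatal marker list (Drd2, Ppp1r1b and others) had a mean log2 signal per array of 11.43 to 12.07 in striatum and at most 7.14 elsewhere, and the cerebellar list (Pcp2, Gabra6 and others) lay between 13.26 and 13.46 in cerebellum. Brainstem/midbrain was less uniform: its hindbrain and midbrain markers (Slc6a4, Tph2 and others) ranged from 6.80 to 7.24 in young arrays but from 3.98 to 7.56 in old ones, while the old arrays from 26 and 28 months lay between 7.23 and 7.56. The cerebellar list also varied in brainstem/midbrain, from 8.147 to 8.993 in young arrays. In old arrays it lay between 7.085 and 7.726 in series 2 and between 8.004 and 9.623 in series 3.

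Each ribosome joins a small subunit, which reads the mRNA, to a large subunit, which forms the peptide bond. Most ribosomal proteins are needed in one copy per ribosome, and their mRNAs typically begin with a C followed by a run of pyrimidines, the TOP tract, through which mTOR and LARP1 set their translation. Neurons, with their large cytoplasm and local protein synthesis in dendrites and axons, hold many ribosomes.

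Transcript starts are shown for the members with the highest and lowest averaged difference between old and young mice, since the TOP tract lies there. Each window holds 10 bases before the RefSeq start and 20 from it on, with the pyrimidine tract in capitals where a C followed by at least 4 pyrimidines begins within 5 bases of the start (RefSeq, GRCm38.p6, read on the gene's strand). Rps27 lies at chr3:90213629-90213658 (minus strand), Rps15 at chr10:80292421-80292450 (plus), Rps10 at chr17:27635225-27635254 (minus) and Rps9 at chr7:3704031-3704060 (plus), all higher in old mice. Rpl12 lies at chr2:32961702-32961731 (plus), Rps25 at chr9:44407704-44407733 (plus), Rps28 at chr17:33824543-33824572 (minus) and Rpl39l at chr16:10170218-10170247 (plus), all lower. Rps4l and Rps20 belong to the same ends of the order.
Rps27: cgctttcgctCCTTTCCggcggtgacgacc
Rps15: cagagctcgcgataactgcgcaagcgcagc
Rps10: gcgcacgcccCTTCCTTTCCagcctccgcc
Rps9: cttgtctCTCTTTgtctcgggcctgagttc
Rpl12: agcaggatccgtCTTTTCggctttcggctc
Rps25: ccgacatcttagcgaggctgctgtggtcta
Rps28: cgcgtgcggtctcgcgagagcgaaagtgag
Rpl39l: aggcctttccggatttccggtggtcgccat
On the probe sets used, tracts stood at both ends of the order: in Rps27, Rps10 and Rps9 among the higher, and in Rpl12 among the lower. The order depends on the probe set. Other probe sets had the opposite sign for Rpl12 (0.24), Rps25 (0.08), Rps28 (0.15) and Rps9 (−0.38). Those of Rps27 (0.58), Rps15 (0.74) and Rps10 (0.51) kept the sign.

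Over the 41 members with a RefSeq start, 19 (46.3%) had such a tract within 5 bases of a listed start, against 21.2% of 27025 genes. Exactly at the start it was present in 8 members (19.5%), against 3.01% of all genes. In windows of 250 bases before to 50 after the start, CCGGAAG, the core bound by ETS factors such as GABP, occurred on either strand in 21 members (51.2%) and in 9.93% of genes, and ATGGCGGC, a YY1 motif, in 1 member (2.44%) and 2.6% of genes. The 19 members with a tract had a median log2 difference between old and young of 0.334, with 15 called higher and 1 lower. For the 22 without one the median was 0.322, with 16 called higher and 5 lower, so the median differed little with this feature.

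Averaged over the 3 lines and 3 regions, ribosomal protein transcripts were mostly higher in old mice. In limma's test across all probe sets at an FDR of 0.05, 34 of 47 members were higher and 7 lower, and 6 did not pass. The background was 20.3% of all probe sets called higher and 49.8% called lower. Within the 22518 probe sets whose mean signal lay above the median, which hold 44 of the members, 38.1% were called higher. These brighter probe sets had a median log2 signal per array of 6.86 to 7.15, against 11.77 to 12.80 for the members. They are thus not matched to the members in signal. The median member was 0.325 higher on the log2 scale (1.25-fold), against a median of −0.057 over all probe sets and 0.069 over those brighter probe sets. Both subunits shared this: 18 of 24 large-subunit genes were higher and 3 lower (median 0.332), and 16 of 23 small-subunit genes were higher and 4 lower (median 0.273). In bulk tissue, fewer cells of a type and less RNA per cell cannot be told apart.

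The members with the largest averaged increases were small-subunit genes. Rps27, a zinc-finger protein, was 0.67 higher (SE 0.085, adjusted p = 1.147e-08 in limma, 1.59-fold), and Rps15, which lies near the decoding centre, 0.61 higher (SE 0.048, adjusted p = 4.347e-13, 1.53-fold). Rps10, mutated in some families with Diamond-Blackfan anaemia, followed with 0.57 (SE 0.044, 1.48-fold), then Rps9, a protein near the mRNA entry channel, with 0.56 (SE 0.072) and Rps4l, a rodent paralog of Rps4x, with 0.55 (SE 0.155, adjusted p = 0.002021), though Rps4l was called in no single line and region. Among large-subunit genes, Rpl19, which helps bridge the subunits, was 0.54 higher (SE 0.035) and Rpl41, a very short basic peptide, 0.53 higher (SE 0.045).

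Rps10 showed the size of this difference array by array. In brainstem/midbrain the young arrays had log2 signals of 11.85 at the lowest, 12.04 at the median and 12.17 at the highest, and the old ones 12.79, 13.06 and 13.24. The old and young ranges were clearly separate there, with every old array above every young one whatever the line. In striatum the young arrays ran from 12.76 to 13.00 and the old from 12.94 to 13.34, and in cerebellum from 12.37 to 13.06 and from 12.93 to 13.23. The ranges overlapped in these regions, in cerebellum through 1 young PrPmtB array at 13.06. A second probe set for Rps10 gave 0.51 in the averaged comparison.

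Rps3, which lines the mRNA entry channel and also takes part in DNA repair, separated by age in 2 regions. Its young brainstem/midbrain arrays lay between 11.40 and 11.61 and the old ones between 12.07 and 12.61. In striatum the young values were 11.96 to 12.21 and the old ones 12.45 to 12.85, again without overlap. Cerebellar values ran from 11.89 to 12.46 in young and 12.25 to 12.60 in old mice, where the ranges overlapped. The log2 difference in brainstem/midbrain was 1.04 in WT (2.05-fold), 0.90 in PrPmtA and 0.89 in PrPmtB.

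**Figure D1:**
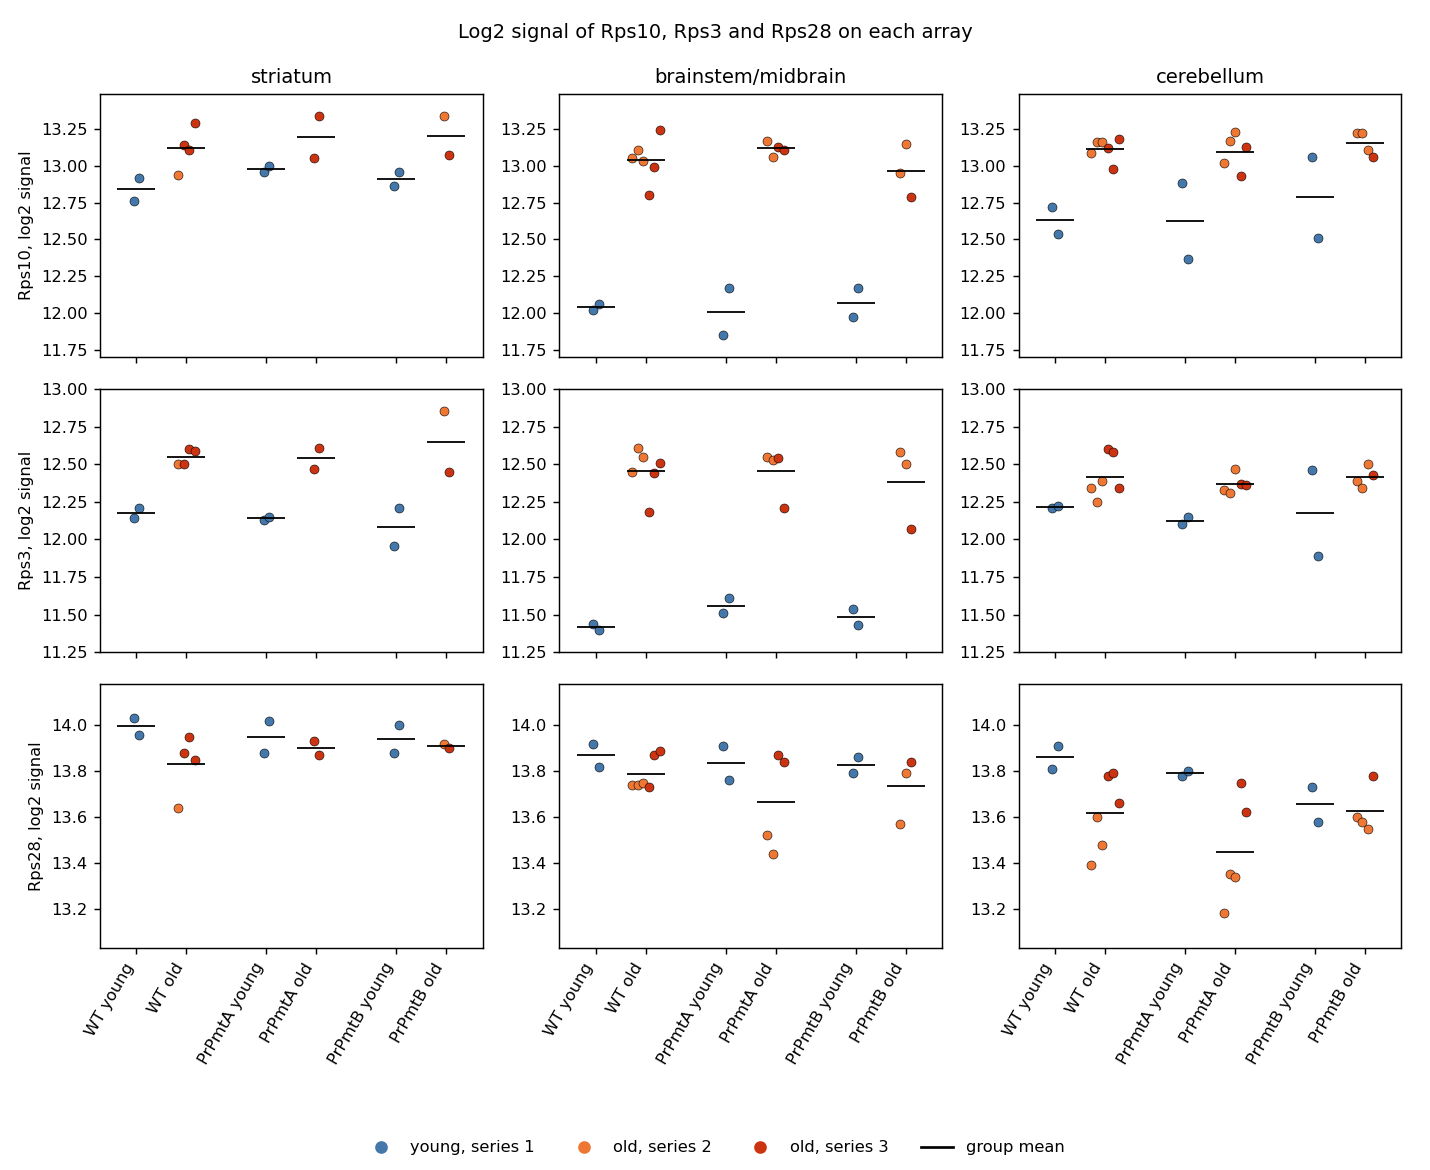
Log2 signal (vertical axis) of Rps10, Rps3 and Rps28 on each array, by region, line and age (horizontal axis), with points coloured by array series and lines at the group means. Rps10 in young brainstem/midbrain reaches 12.17 at most while the old arrays start at 12.79, and the lowest Rps28 values, down to 13.18, belong to old cerebellar arrays of series 2.

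Pooled over lines, 26 members had every old array above every young one in brainstem/midbrain, 17 in striatum and 1 in cerebellum. Of all probe sets, 3.87%, 3.97% and 2.77% did so in those regions. The member in cerebellum was Rpl4, which lines the peptide exit tunnel: its young arrays ranged from 12.42 to 12.71 and its old ones from 12.86 to 13.22. Rpl19 was separate in striatum (12.51 to 12.56 young, 12.75 to 13.01 old) and in brainstem/midbrain (11.71 to 12.08 young, 12.58 to 13.00 old). In the other direction, the dim probe sets of Rpl39l and Rps16 had every old array below every young one in striatum and cerebellum. For Rpl39l the striatal values were 2.62 to 2.69 in young and 2.44 to 2.54 in old mice, near the low end of the signal scale. The share of all probe sets separated in this direction was not counted, so nothing particular to these genes can be read from it. The array median was also lower in old mice without overlap: 3.50 to 3.63 young and 3.41 to 3.47 old in striatum, 3.46 to 3.57 and 3.38 to 3.44 in cerebellum.

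Of the 7 members called lower, 5 had a mean log2 signal under 8. Rpl12, at the base of the P stalk, was lower in old mice (log2 difference −0.82, SE 0.165, adjusted p = 3.499e-05 in limma), and Rps25, a protein near the tRNA exit site, had a difference of −0.49 (SE 0.140, adjusted p = 0.0023). Their probe sets had mean signals of only 4.16 and 5.23. Brighter probe sets that Rpl12 and Rps25 share with pseudogenes, at 12.36 and 12.87, gave 0.24 (called higher) and 0.08 (not called). The signs were thus opposite between the dim, unique and the bright, shared probe sets of both genes. With old arrays of series 3 alone the difference on the Rps25 probe set was −0.27 and not called.

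Rps28, at the mRNA exit site, and Rps20, of the small subunit's head, were the 2 brighter members called lower. Rps28's young cerebellar arrays ran from 13.58 to 13.91 and the old ones from 13.18 to 13.79, and the averaged difference was −0.13 (SE 0.041, adjusted p = 0.004001 in limma). The ranges overlapped in every region, the lowest old values lay in series 2, and with old arrays of series 3 alone the difference was −0.03 and not called. A second Rps28 probe set gave 0.15 and was called higher. Rps20 had −0.07 (adjusted p = 0.04678), a call lost without any 1 of 31 arrays, and the dim probe sets of Rpl39l, a testis-rich paralog of Rpl39, Rpl3l, a muscle paralog of Rpl3, and Rps16 had −0.08, −0.06 and −0.06. After quantile normalization the Rpl39l difference was −0.01 and not called. The members that did not pass were Rps29 (0.01), Rpl27a (0.01), Rps7 (0.02), Rpl39 (0.04), Rpl7 (0.05) and Rps24 (0.06).

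Signal strength divided the members. Of the 36 with a mean log2 signal of 8 or more, 30 were higher and 2 lower, and of the 11 below 8, 4 were higher and 5 lower. This split was chosen after the values were seen, and the share of all probe sets at such signals that were called was not counted. Second probe sets, available for 23 members, gave the same direction for most and the opposite call for some: Rps15 0.74 and Rps14 0.63 against 0.61 and 0.38, but Rps9 −0.38 against 0.56, from a probe set with a signal of 6.12. Rps29 and Rps7, which did not pass, were called higher on their second probe sets (0.43 and 0.28, signals 13.47 and 12.68).

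**Figure D2:**
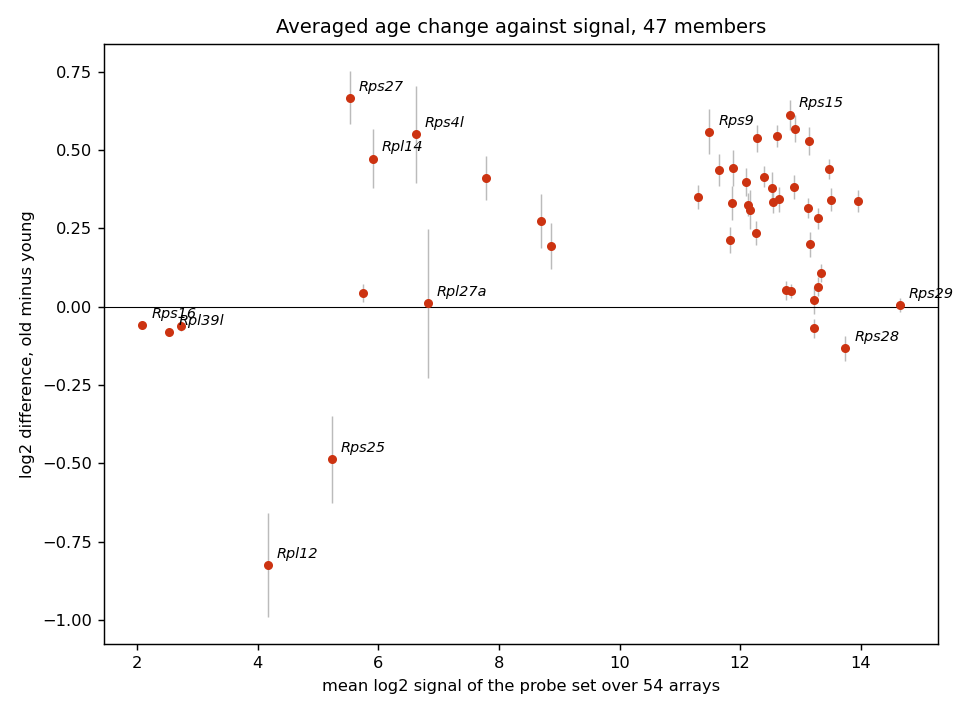
Averaged log2 difference, old minus young (vertical axis), against the mean log2 signal of each member's probe set over 54 arrays (horizontal axis); each point is 1 of the 47 members. Rpl12 (−0.82) and Rps25 (−0.49) lie at low signal, and 30 of the 36 members at 8 or above were called higher.

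By role, the genes of mRNA entry and decoding all passed as higher: Rps2 0.24, Rps3 0.54 and Rps15 0.61. In the P stalk, which recruits elongation factors, Rplp0 (0.38) and Rplp2 (0.28) were higher. Rpl12 was lower on its own dim probe set (signal 4.16) and higher (0.24) on a brighter shared one (signal 12.36). Rpl11, the partner of Rpl5 in the complex with 5S RNA that restrains Mdm2, was 0.41 higher. At the peptide exit tunnel 3 of 4 genes were higher (Rpl4 0.31, Rpl19 0.54, Rpl35 0.20) and Rpl39 did not pass. Of 10 measured genes mutated in Diamond-Blackfan anaemia, an inherited failure of red cell production, 6 were higher and 1, Rps28, lower. The second probe set of Rps28 was called higher (0.15). Rps19, the one most often mutated, had 0.31. Of all 47 members 34 were called higher, as were 20.3% of all probe sets and 38.1% of the brighter ones. With lists this short, nothing particular to a role or to the disease genes can be read from these counts.

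Ribosomal protein genes are widely used as reference genes for qPCR, and 6 of the 7 measured here were higher in old mice: Rplp0 (0.38), Rpl4 (0.31), Rpl13a (0.34), Rpl19 (0.54), Rpl27 (0.35) and Rps18 (0.44). Rps29 had 0.01 and did not pass, though 0.43 on its second probe set. Rpl27 was −0.15 and not called on its second probe set. For comparison, 34 of the 47 members, 20.3% of all probe sets and 38.1% of the brighter ones were called higher. Age and array series coincide, so whether these reference genes change with age itself cannot be told. Among paralogs of other ribosomal proteins, Rps27l, a p53 target, was 0.27 higher alongside its partner Rps27, and Rps4l was higher by 0.55 where the X-linked Rps4x had 0.05 (SE 0.022, adjusted p = 0.03914).

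Region by region, the difference between old and young was largest in brainstem/midbrain. There 31 members were called higher in WT (background 10.6%), 29 in PrPmtA (10.2%) and 29 in PrPmtB (8.25%), with median log2 differences of 0.556, 0.544 and 0.452 (1.47-, 1.46- and 1.37-fold). In striatum 20 were called higher in WT (9.07%), 17 in PrPmtA (7.07%) and 22 in PrPmtB (8.95%), with medians of 0.197, 0.202 and 0.231. In cerebellum the counts were 19 in WT (10.8%), 18 in PrPmtA (9.7%) and 12 in PrPmtB (6.98%), with medians of 0.152, 0.123 and 0.097. Medians over all probe sets lay between −0.098 and 0.009 in these 9 comparisons. Among the brighter probe sets, the higher calls were 17.3%, 13.6% and 17.4% in striatum (WT, PrPmtA, PrPmtB), 20.7%, 18.7% and 15.5% in brainstem/midbrain, and 21.1%, 18.9% and 13.6% in cerebellum. Their medians were 0.097, 0.035 and 0.078 in striatum, 0.051, 0.058 and 0.04 in brainstem/midbrain, and 0.109, 0.062 and 0.019 in cerebellum. The members' medians thus lay closest to those of the brighter probe sets in cerebellum, though the brighter set is not matched to the members in signal.

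Lower calls numbered 3, 3 and 3 members in striatum in the same order of lines (background 33.6%, 25.6% and 29.9%), 2, 1 and 0 in brainstem/midbrain (31.2%, 10.1% and 8.55%) and 4, 5 and 3 in cerebellum (35.6%, 27.8% and 20.8%). Single arrays weighed on the small striatal groups: 11 and 5 members were called higher in PrPmtA without young replicate 2 and without old replicate 2, and 8 in PrPmtB without young replicate 1 or without old replicate 1.

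Calls here follow limma's nested F rule over the 9 comparisons, under which a member can be called although its single adjusted p is over 0.05. With each comparison judged alone, the higher calls were 13, 1 and 10 in striatum for WT, PrPmtA and PrPmtB, and 8 in PrPmtA and 1 in PrPmtB cerebellum. Centring each array on the median of its brighter probe sets left 10, 10 and 12 in striatum and 8 and 9 in WT and PrPmtA cerebellum.

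Rpl19, Rps3 and Rps15 were called higher in all 9 comparisons, as were 573 probe sets or 1.27% of all. A positive difference in all 9 was found for 24 members, 22 were called higher in at least 5, and 9 were called in none. The same held for 8.67%, 7.8% and 35.3% of all probe sets and for 16.8%, 15.4% and 40.9% of the brighter ones. No member was called in both directions. Rps27 in WT brainstem/midbrain had the largest difference among the higher calls, 1.35 (2.55-fold): its young arrays over all lines ran from 4.56 to 5.39 and its old ones from 5.49 to 6.93. The brighter probe set that Rps27 shares with Rps27rt gave an averaged difference of 0.58, close to the 0.67 of its own.

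**Figure D3:**
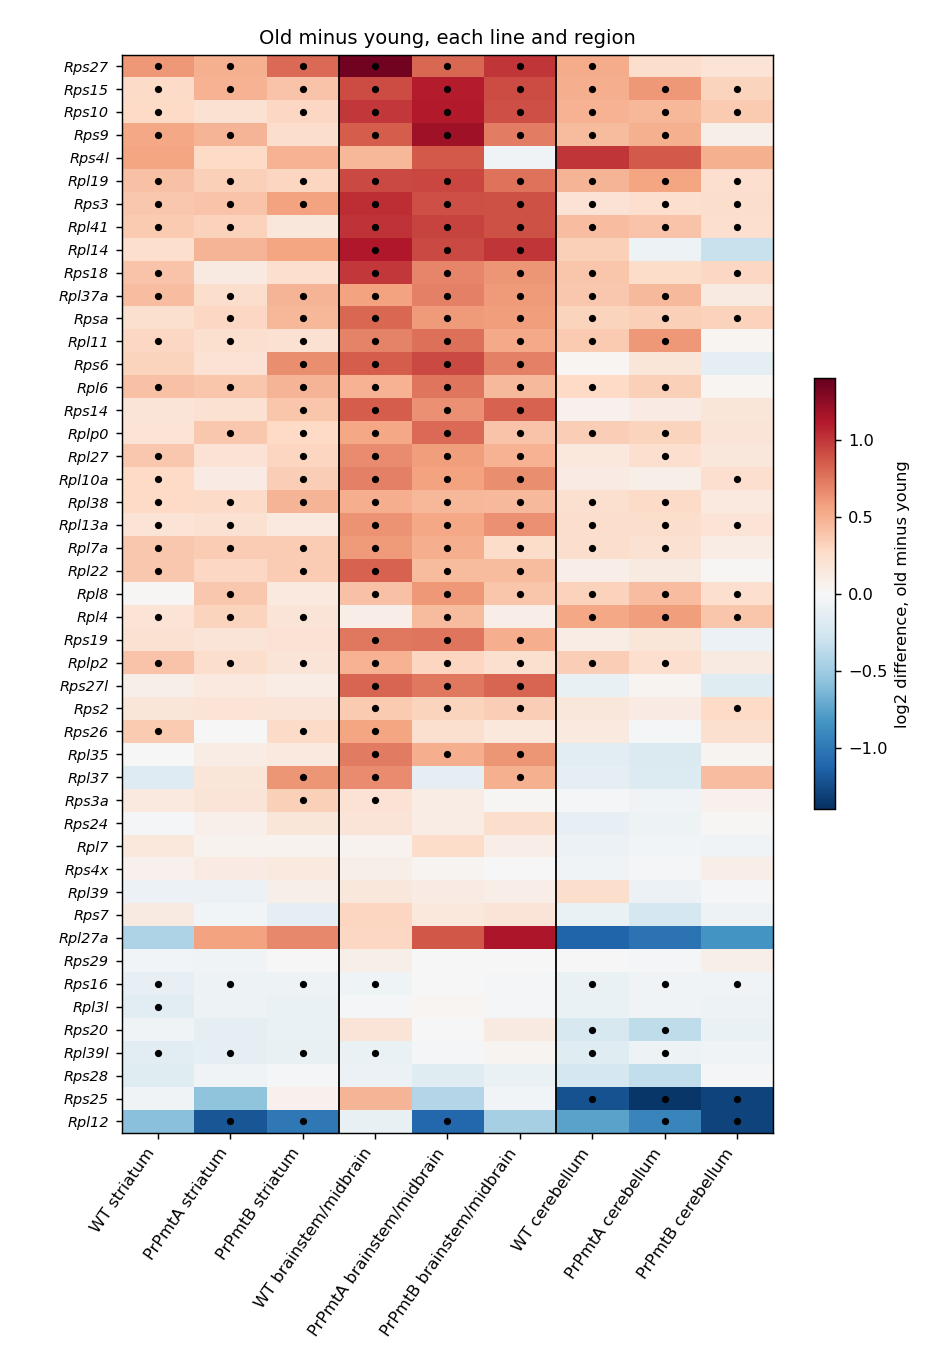
Log2 difference between old and young mice for each of the 47 members (rows) in the 9 combinations of line and region (columns), with marked cells called by limma. Differences over 0.5 gather in the brainstem/midbrain columns, and Rpl19, Rps3 and Rps15 are called higher in all 9.

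The mean over the 47 members summarised each array. In young brainstem/midbrain it lay between 10.373 and 10.486 and in old between 10.795 and 11.150. Striatal arrays gave 10.769 to 10.860 in young and 10.957 to 11.114 in old mice, again apart. Cerebellar ranges overlapped, 10.437 to 10.836 in young and 10.538 to 10.933 in old mice. The 2 young PrPmtB cerebella stood far apart, at 10.836 and 10.437: without replicate 1, 26 members were called higher in that comparison, and without replicate 2 only 1.

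**Figure D4:**
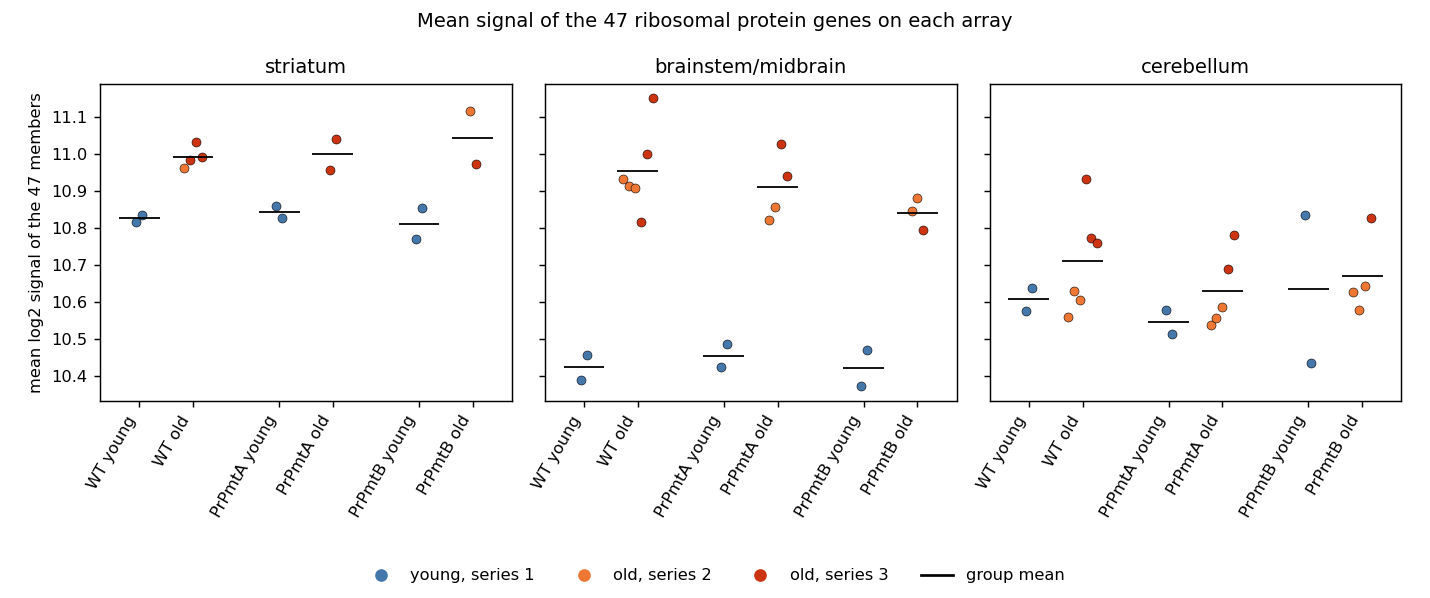
Mean log2 signal of the 47 members on each array (vertical axis) by line and age (horizontal axis) and region (panels); points are arrays coloured by series, lines are group means. Young brainstem/midbrain arrays reach 10.486 at most and old ones start at 10.795, whereas the cerebellar ranges overlap.

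Other measures moved along with age. As background for the marker counts, 20.3% of all probe sets were called higher in the averaged comparison and 49.8% lower. Among the brighter ones these shares were 38.1% and 25.6%. The microglial markers were higher in old mice for 10 of 11 genes (median 0.916), and their mean per array went from 6.61 to 7.11 in young to 7.70 to 9.12 in old brainstem/midbrain, from 7.48 to 7.79 to 8.11 to 9.25 in striatum, and from 5.55 to 5.94 to 6.78 to 7.81 in cerebellum. Of 9 astrocyte markers 7 were higher and 1 lower, of 8 oligodendrocyte markers 4 were higher, of 9 neuronal markers 4 were higher and 3 lower, and of 6 endothelial markers 5 were higher. The array median was 3.46 to 3.63 in young and 3.38 to 3.47 in old mice, and the 3 prime minus 5 prime signal of Gapdh was −0.46 to −0.23 and −0.48 to 0.09. With the 3 prime minus 5 prime signal of Gapdh and Actb as a covariate, 35 members were higher and 6 lower in the averaged comparison. The part of the cell type markers in the ribosomal protein difference was not tested. In old brainstem/midbrain, the 4 arrays from 26 and 28 months, whose region markers lay between 7.23 and 7.56, had member means of 10.941 to 11.150. All 4 belong to series 3, and the part of dissection in the difference was not tested.

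Between old arrays of series 3 and series 2, 21 members differed (background 17%), 18 higher and 3 lower in series 3, with a median of 0.031. Among the brighter probe sets 17.5% were higher and 12.3% lower, with a median of 0.028. Rpl27a was the extreme, 1.12 higher (SE 0.221, adjusted p = 0.000374 in limma). Its log2 signals in old cerebellum were 4.44 to 5.40 in the arrays of series 2 and 7.06 to 7.57 in those of series 3, with no array between, and the young cerebella had 6.49 to 7.41. Rpl12 (0.76), Rps4l (0.72), Rps25 (0.52) and Rps9 (0.37) were also higher in series 3, and Rpsa (−0.23), Rpl22 (−0.20) and Rps2 (−0.14) lower. Series 3 also differs from series 2 in age and sex, and these cannot be told apart.

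The age difference itself differed between regions. For brainstem/midbrain against striatum 23 members had a more positive difference in brainstem/midbrain and 0 a more negative one (background 25.1% more positive, 8.35% among the brighter probe sets), with a median of 0.239. Rps10 was first by p, with 0.74 (adjusted p = 8e-06 in limma), followed by Rpl41 0.67, Rpl19 0.52, Rps14 0.51 and Rpl35 0.54. For cerebellum against brainstem/midbrain 31 members had a more negative difference (background 20.2%, 12% among the brighter probe sets) and 1 a more positive one, with a median of −0.336. Rpl35, at the exit tunnel's rim, had −0.72 there, Rps3 −0.71, Rps14, of the small subunit's platform, −0.66, Rpl41 −0.59 and Rpl19 −0.45. With old arrays of series 3 alone these counts were 12 and 13.

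Between cerebellum and striatum the age difference was called for 3 members (background 13.6%). Rpl4 had a difference 0.28 larger in cerebellum, and Rps25 and Rps3a had −1.11 and −0.22, the Rps3a call being lost without any 1 of 9 arrays. On the dim Rps25 probe set the young cerebellar arrays lay at 6.02 to 6.93 and the old ones at 4.45 to 6.56, overlapping. Leaving out 1 array gave 2 to 14 calls, with 14 without young PrPmtB cerebellum replicate 2, 8 without old PrPmtB striatum replicate 2, 6 without old PrPmtB cerebellum replicate 4, and 5 without old WT cerebellum replicate 4 or young PrPmtA cerebellum replicate 1. With series 3 alone as old arrays 0 members were called. Rpl27a (−1.27) and Rpl7a (−0.18) came next by p and were not called.

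No member was called between a transgenic line and WT in limma's test. Averaged over regions and ages, 0 of 47 were called in PrPmtA (background 0.266% of probe sets called) and 0 in PrPmtB (0.233%), where 4 and 7 had an unadjusted p under 0.05. Median differences were −0.015 and −0.007. The smallest p in PrPmtA belonged to Rpl39 (0.08, unadjusted p = 0.02653, adjusted p = 0.2569 in limma), Rpl6 (−0.12, adjusted p = 0.2674) and Rpl7 (−0.08, adjusted p = 0.2806). In PrPmtB it belonged to Rps3a (−0.10, adjusted p = 0.2416), Rps4x (−0.07, adjusted p = 0.2622) and Rpl7 (−0.09, adjusted p = 0.291). With old arrays of series 2 alone, Rplp2, an acidic stalk protein, was 0.15 higher in PrPmtB (SE 0.033, adjusted p = 0.00944 in limma).

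The striatal age difference, on which the study centred, did not differ detectably by line either. Against WT, 0 members were called in PrPmtA (background 0.469%) and 0 in PrPmtB (0.286%), with 1 member each at an unadjusted p under 0.05 and medians of −0.009 and 0.043. With only 2 arrays per age in each transgenic line, and 2 young and 4 old ones in WT, the precision is low. Differences for single members ran from −0.61 to 0.99 in PrPmtA and from −0.42 to 1.10 in PrPmtB, a range over members and not a measure of precision. Series 2 alone gave 2 calls in PrPmtB, Rpl27a 1.71 and Rpl37 1.11, from 1 old PrPmtB and 1 old WT array.

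Striatum had the highest ribosomal protein signals of the regions for most members. Averaged over lines and ages, 41 members were lower in brainstem/midbrain than in striatum (background 42%) and 1 higher (21.2%), with a median of −0.237, and 39 were lower in cerebellum (background 41.1%) and 2 higher (23.1%), with a median of −0.251. Medians over all probe sets were −0.038 and −0.031, and 27% and 29.6% of the brighter probe sets were lower, 37.1% and 40.5% higher. Between cerebellum and brainstem/midbrain the members divided, 16 lower (background 19.9%) and 10 higher (24%), with a median of 0.006. Among the brighter probe sets 32.8% were lower and 36.1% higher, so the members' lower calls were near that share.

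Rps2, a small-subunit protein at the mRNA entry channel, had one of the firmest regional differences. Its young arrays ran from 12.62 to 12.90 in striatum, from 11.92 to 12.07 in brainstem/midbrain and from 11.44 to 11.94 in cerebellum. Old arrays ran from 12.79 to 13.10, 12.10 to 12.69 and 11.77 to 12.04, so striatum stood above the other regions at both ages without overlap. The difference was −0.98 for cerebellum (SE 0.048, adjusted p = 3.522e-20 in limma) and −0.65 for brainstem/midbrain. Rps19, the Diamond-Blackfan gene, had −0.87 and −0.65, Rpl37 −0.86 in cerebellum, Rpsa, also known as the laminin receptor, −0.69 in cerebellum, and Rpl41 −0.68 in brainstem/midbrain. Rpl27a, whose old cerebellar values divided by series, had −1.16 and −0.67, and the −0.67 lost its call without any 1 of 6 arrays.

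Rps4l went the other way. Its log2 signal was 4.63 to 6.04 in young striatum, 6.60 to 7.86 in young brainstem/midbrain and 5.41 to 6.39 in young cerebellum, and 4.89 to 6.38, 6.97 to 8.70 and 5.67 to 7.38 in old mice. Brainstem/midbrain lay above striatum at both ages without overlap, by 1.61 (SE 0.195, adjusted p = 7.331e-09 in limma), and cerebellum by 0.62 (SE 0.193, adjusted p = 0.005329). The probe set of its partner Rps4x had −0.09 and −0.33. Rps25 was 0.51 higher in cerebellum (adjusted p = 0.01002) and had −0.62 in brainstem/midbrain, but on its brighter shared probe set the cerebellar difference was −0.26. Members not called between cerebellum and striatum were Rpl7a (−0.01), Rpl7 (−0.05), Rps3 (−0.07), Rplp0 (0.11), Rps27l (0.18) and Rpl12 (−0.24).

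**Figure D5:**
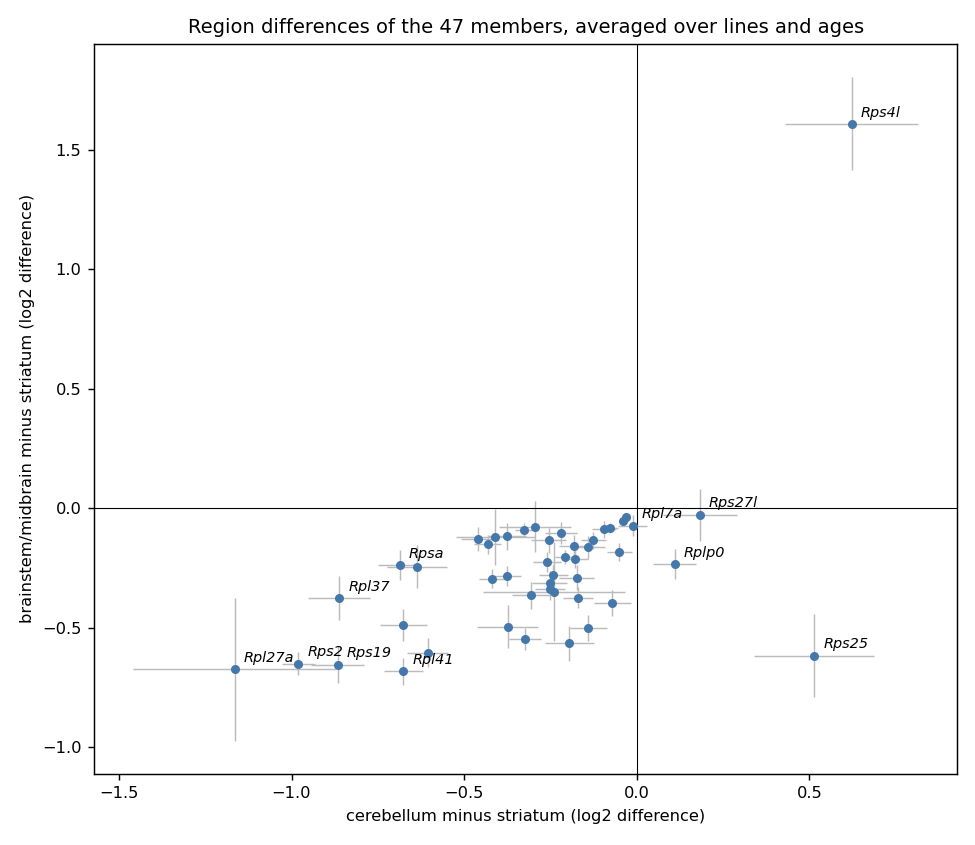
Log2 difference from striatum in cerebellum (horizontal axis) and brainstem/midbrain (vertical axis) for each of the 47 members, averaged over lines and ages. Most points lie below 0 on both axes, with Rps4l (0.62 and 1.61) apart at the upper right and Rps2 (−0.98 and −0.65) at the lower left.

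Over the 54 arrays, after removing group means, the correlation of a member with the mean of the other members had a median of 0.53, from −0.45 for Rpl4 to 0.91 for Rps19, and 28 of 47 exceeded 0.5. For 11508 other genes with a brighter probe set of their own, the correlation with the members' mean had a median of 0.10, and 14.6% exceeded 0.5. Over the 18 group means the members' median was 0.81 and 40 exceeded 0.5, where the other genes had a median of 0.03 and 19.1% exceeded 0.5. These points share arrays, array series and normalization. Among those other genes, the 18 group means most like the members' mean belonged to 1110065P20Rik (r = 0.967), Dctn3 (0.966), a dynactin subunit, Gpx1 (0.958), a glutathione peroxidase, Spg21 (0.957), Wdr45b (0.957), Pet100 (0.952), Npl (0.951), Tbrg1 (0.95), B9d2 (0.943) and Cln8 (0.94).

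The machinery around the ribosome was examined through gene lists. For the averaged age difference, 20.3% of all probe sets were called higher and 49.8% lower. Among the brighter ones these shares were 38.1% and 25.6%, with a median of 0.069. Mitochondrial ribosomal proteins, encoded separately from the cytosolic set, were higher in old mice for 56 of 76 genes and lower for 2 (median 0.299), with Mrpl14 at 0.92 and Mrpl44 at −0.25. By region, where 40.5% and 37.1% of the brighter probe sets were higher in cerebellum and in brainstem/midbrain than in striatum, their medians had the opposite sign to the cytosolic set: 51 were higher in cerebellum than in striatum and 5 lower (median 0.302), and 38 higher and 10 lower in brainstem/midbrain (median 0.157). Initiation factors were higher for 20 of 33 and lower for 2 (median 0.214), with Eif6, which keeps free large subunits apart from small ones, at 0.59 and Eif4g2 at −0.29. Elongation and release factors were higher for 7 of 11 and lower for 2, with Eef1d at 0.63, Eef2, the translocase, at 0.42 and Abce1, a recycling factor, at −0.21. For ribosome biogenesis 18 of 42 were higher and 7 lower, with Rrp9 at 0.74, Npm1 at −0.29 and Rrs1 at −0.57. The median of this list, 0.077, was close to the 0.069 of the brighter probe sets. Within mTOR signalling and TOP mRNA control 9 of 19 were higher and 4 lower, with the mTOR inhibitor Akt1s1 at 0.64 and the S6 kinase Rps6kb2 at −0.77. Other TOP mRNAs and ribosomal proteins outside the symbol rule were higher for 10 of 17 and lower for 5, with Fau, the precursor of a small-subunit protein, at 0.92, Pabpc1 at 0.48 and Btf3 at −0.32.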

How the data were processed

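Biotin-labelled cRNA made from the total RNA of each sample was hybridised to an Affymetrix mouse genome array. The authors deposited log2 signals per probe set for 54 arrays. The methods name RMA and the submitters' processing notes GCRMA, and the deposited log2 values were used as given, from 0.99 to 15.36. Of 45101 probe sets, 64 controls were left out. Of the 45037 tested, 34958 were annotated to 1 gene, 932 to several and 9211 to none by the platform annotation. Array data give no read depth, and the number of arrays limits the precision. No pair of arrays held identical values (highest correlation 0.9975), and 0 columns of other samples were present.

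An 18-group means model was fitted with limma 3.58.1 in R 4.3.3 to all arrays, with calls by decideTests (nested F, FDR 0.05) within families of comparisons and by the adjusted p for the averaged age difference and array series. Samples were grouped by line, region and age from their labels. The model was tested on simulated data. The transgene is not reported here. Named members are the 5 highest and 5 lowest called for age averaged and for each region against striatum, the 3 with the smallest p per line, the 5 with the smallest p in each difference between regions, and the members of the role lists. Members named beyond this rule were chosen after their values were seen. The members and lists were chosen with earlier results of these data known. Alternatives covered normalization, centring, covariates, array code as a random block, probe set choice, array series and leaving out each array.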

Additional observations from a re-analysis of the deposited data

Results flagged for a closer look

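The highest and lowest array of a group were checked for 11 items: the members' mean and the 5 highest and 5 lowest members for age averaged. Of 66 checks, 2 stood apart, where about 3.3 are reached by chance at 1 in 20 groups. Rps15 had its lowest value of old PrPmtA brainstem/midbrain on replicate 4, at 12.98, and Rpl12 its highest value of old WT cerebellum on replicate 4, at 5.45.

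The age difference differed between regions, by a test of that difference, for 13 values of named members. Cerebellum minus striatum gave 0.28 for Rpl4, −1.11 for Rps25 and −0.22 for Rps3a. Brainstem/midbrain minus striatum gave 0.74 for Rps10, 0.67 for Rpl41, 0.52 for Rpl19, 0.51 for Rps14 and 0.54 for Rpl35. Cerebellum minus brainstem/midbrain gave −0.72 for Rpl35, −0.66 for Rps14, −0.71 for Rps3, −0.59 for Rpl41 and −0.45 for Rpl19. The last 2 sets share the brainstem/midbrain arrays.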

How the results depend on the processing

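Age and array series coincide, most groups hold few arrays, and weak or shared probe sets limit what single members show. Apart from leaving out arrays, of 302 alternative values for the counts of called members, 272 stayed within 1.5 times the reported count, and 446 of 472 for named members kept direction and call. With each comparison judged alone, striatal higher calls by age numbered 13 (WT), 1 (PrPmtA) and 10 (PrPmtB), and cerebellar ones 8 (PrPmtA) and 1 (PrPmtB). Quantile normalization gave 13, 10 and 11 in striatum and 6 in PrPmtB cerebellum, and centring on the brighter probe sets 10, 10 and 12 in striatum and 8 and 9 in WT and PrPmtA cerebellum. A separate fit for each region gave 13 in WT striatum and 6 in PrPmtB cerebellum, and the array code as a random block (correlation 0.136) 5 calls for the age difference between cerebellum and striatum.

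With old arrays of series 3 alone, higher calls were 6 in PrPmtB striatum and 19 in PrPmtB brainstem/midbrain, averaged lower calls 4, and calls for the age difference between regions 0 (cerebellum, striatum), 12 (brainstem/midbrain, striatum) and 13 (cerebellum, brainstem/midbrain). Series 2 alone gave 1 call in PrPmtB against WT and 2 in its striatal age difference. On second probe sets (23 members) there were 4 higher calls in PrPmtB cerebellum, 4 averaged lower calls and 2 for cerebellum against striatum by age, and Rps9 (−0.38), Rps28 (0.15) and Rpl27a (0.09, age difference between cerebellum and striatum) turned direction. Without cross-hybridising probe set types (42 members) the last count was 5 and Rps9 again −0.38. Alternatives chosen after seeing the data were the brightest probe set alone or shared, where Rpl12 (0.24), Rps25 (0.08) and Rps25 in cerebellum against striatum (−0.26) turned, and members at a signal of 8 or more, with 2 averaged lower calls. Beyond these constructions the cause was not tested.

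Leaving out each array gave 14 to 23 (WT), 5 to 22 (PrPmtA) and 8 to 23 (PrPmtB) striatal higher calls, 1 to 26 in PrPmtB cerebellum, 33 to 35 averaged higher calls, 2 to 14 calls for the age difference between cerebellum and striatum, and 0 for each line. Separate fits could not give averages or comparisons between regions, and series 2 alone lacks PrPmtA striatum. Array codes in the labels recur across regions and may mark the same mice, which the sources used here do not state. Replicate numbers follow accession order and pair nothing.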

Other observations

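The 29 genes of the same symbol rule that lie only on shared probe sets were measured on 27 probe sets and stayed out of the members. Counted by gene, so that a probe set shared by several of them counts for each, 23 of the 29 were called higher in old mice and 2 lower. This was averaged over lines and regions, with a median log2 difference of 0.223. Of all probe sets 20.3% were called higher and 49.8% lower there, and of the brighter ones 38.1% and 25.6%. In cerebellum against striatum 0 were higher (background 23.1%) and 21 lower (41.1%). In brainstem/midbrain against striatum 2 were higher (21.2%) and 22 lower (42%). Among the brighter probe sets 29.6% and 27% were lower in these comparisons. In either line against WT 0 were called (background 0.266% in PrPmtA and 0.233% in PrPmtB). Of the members, 10 have a shared probe set brighter than their own. On it the averaged age difference was 0.36 for Rps16, 0.19 for Rpl39 and 0.14 for Rpl27a, all called higher, −0.12 for Rpl37, called lower, and 0.22 for Rps2, called higher. Rpl14 (0.07) and Rps6 (0.03), both called higher on their own dimmer probe sets, were not called there.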
